A study of Homo sapiens with 6 samples.

Results

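The genes described here are 50 human genes known as targets of the transcription factor MYC that serve ribosome production and cell growth. They were chosen by name from a list, and the level of each gene is the sum over its transcripts in the deposited files. All 50 were found among the 57290 genes of the annotation, and all 50 reached the minimum mean of 1 TPM set for testing, where TPM is a share of a library's transcripts corrected for their length. They were measured in the human multiple myeloma line KMM1, an established cell line, in 3 control libraries and 3 TAZ libraries. The control cells were transduced with the empty lentiviral vector WPI and the TAZ cells with a lentivirus expressing TAZ, a transcriptional co-activator of the Hippo pathway encoded by WWTR1, so cells of both groups carry a lentivirus. RNA was taken 4 days after transduction. The promoter of the vector and the selection or clonal state of the cells were not given in the sources used here. No label says that the libraries of a group are separate cultures, so a p-value here covers only the spread between these samples, and that spread may be technical.

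MYC binds DNA together with MAX at short sites called E-boxes, of which CACGTG is the canonical form. Its targets include factors that transcribe ribosomal RNA in the nucleolus, cut and modify the precursor, assemble it with ribosomal proteins into the small and the large subunit, and supply nucleotides, polyamines and mitochondrial proteins for growth. In multiple myeloma, a tumour of antibody-secreting plasma cells, MYC activity is often raised by rearrangement of its locus.

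Promoter sequence was read from RefSeq (GRCh38.p14, not the hg19 build of the expression files) in windows from 250 bases before to 50 bases after each start. The members are listed as known targets of MYC, so their share of CACGTG is not independent of how they were chosen. Windows were held for 42 of the 50 members, and those of 22 members (52.4%) contained CACGTG. This motif is a palindrome, so a single search covers both strands. It was contained in 8.77% of the 27305 genes of the same table and in 10.9% of its 15843 protein-coding genes. The median log2 difference between TAZ and control libraries was -0.29 for the 22 with it and -0.38 for the 20 without it. A match of letters is a description and does not show binding, and whether MYC drives these genes in KMM1 was not measured. The following stretches are shown because they belong to members whose levels are described below, with the motif in capitals and the strand of the gene:
SRM, chr1:11060195-11060234, minus strand: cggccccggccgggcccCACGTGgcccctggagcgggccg
ODC1, chr2:10448019-10448058, minus strand: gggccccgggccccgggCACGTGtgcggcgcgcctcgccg
EXOSC5, chr19:41397426-41397465, minus strand: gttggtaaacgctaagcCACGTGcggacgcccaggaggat
IMP4, chr2:130342677-130342716, plus strand: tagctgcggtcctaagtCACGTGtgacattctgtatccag
PRMT3, chr11:20387512-20387551, plus strand: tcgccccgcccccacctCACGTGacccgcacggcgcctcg
HSPD1, chr2:197500340-197500379, minus strand: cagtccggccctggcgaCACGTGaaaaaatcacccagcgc
The motif shown starts 29 bases before the start in ODC1, 89 in EXOSC5, 187 in PRMT3, 199 in SRM and 203 in IMP4. The windows of ODC1, EXOSC5 and IMP4 hold a second CACGTG just after the start, which is not printed. HSPD1 and HSPE1, the genes of the mitochondrial chaperonin and its co-chaperonin, lie head to head and share 1 motif, 88 bases before the HSPD1 start and 22 bases before the HSPE1 start.

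The libraries held 1099.95 to 2033 megabases of aligned sequence, and the median read depth over the members was 34.7 to 59.2 in control cells and 29.1 to 41.2 in TAZ cells. Over log2(scaled TPM + 1), correlations between libraries ran from 0.878 to 0.948. Control library 3 correlated at 0.897 and 0.926 with the other controls and at 0.918 with TAZ library 1. WWTR1, the transgene, was at 2.35, 1.21 and 1.40 scaled TPM in control cells and at 365, 138 and 145 in TAZ cells. MYC was at 566, 569 and 377 scaled TPM in control cells and at 375, 307 and 265 in TAZ cells. Its groups did not overlap, but control library 3 and TAZ library 1 nearly met, and it was not called (limma log2 difference -0.66 ± 0.24 SE, adjusted p = 0.231). Summed plasma cell markers ran from 2442 to 3161 scaled TPM in control cells and from 2857 to 3252 in TAZ cells, and 3 of 10 (SDC1, IRF4 and SLAMF7) were lower by the test. IGJ, the most abundant of them, was at 1166, 1224 and 1050 in control cells and higher at 1698, 2132 and 1691 in TAZ cells, without passing (limma adjusted p = 0.131). Of 6 markers of epithelial or packaging line cells, 3 keratin genes (KRT8, KRT18 and KRT5) were higher, and the sum ran from 194 to 322 in control cells and from 959 to 2295 in TAZ cells. Most of that sum was KRT8; CDH1 was at 36.9 to 57.0 in control cells and lower at 17.1 to 30.1 in TAZ cells, and EPCAM overlapped with a log2 difference of 0.04, and neither passed. The fibroblast, T and NK cell, and myeloid lists each summed to at most 7.23 scaled TPM in any library. In the fibroblast list DCN passed, at 0.201, 0.138 and 0 in control cells and higher at 3.66, 3.05 and 3.45 in TAZ cells (limma adjusted p = 0.00298). In the myeloid list CD14 passed, at 4.17, 3.40 and 5.12 in control cells and lower at 1.67, 1.60 and 1.27 in TAZ cells (limma adjusted p = 0.0435). The part of these markers in the members' levels was not tested, and in bulk RNA fewer cells of a type and less RNA per cell cannot be told apart.

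No member rose or fell by the test. Of the 50, 0 passed an adjusted p of 0.05 in either direction (limma on log2(scaled TPM + 1), Benjamini-Hochberg over 19390 tested genes), against 3.21% of all tested genes, 2.25% higher and 0.964% lower. At an unadjusted p under 0.05 there were 14 members, or 28% of them, beside 18% of all tested genes and 22.7% of those averaging 50 TPM or more. The members nevertheless leaned towards lower levels in TAZ cells: 39 of 50 (78%) had a log2 difference below 0, against 54.8% of all tested genes and 67.9% of those averaging 50 TPM or more, called abundant below. Their median log2 difference was -0.32, with medians of -0.05 over all tested genes and -0.22 over the abundant ones. In 17 members the groups were separate, with every TAZ library below every control library (34%, against 14.8% of all tested genes and 23.4% of the abundant ones), and in 2, NOP56 and ODC1, every TAZ library lay above (4%, against 10.1%). Levels ran from a mean of 1.63 scaled TPM for NOC4L to 518 for NPM1, with a median of 53.9. Without control library 3 there were again 0 calls among the members and 39 below 0, with a median of -0.35. Then 57.1% of all tested genes and 65.4% of the abundant ones lay below 0.

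**Figure D1:**
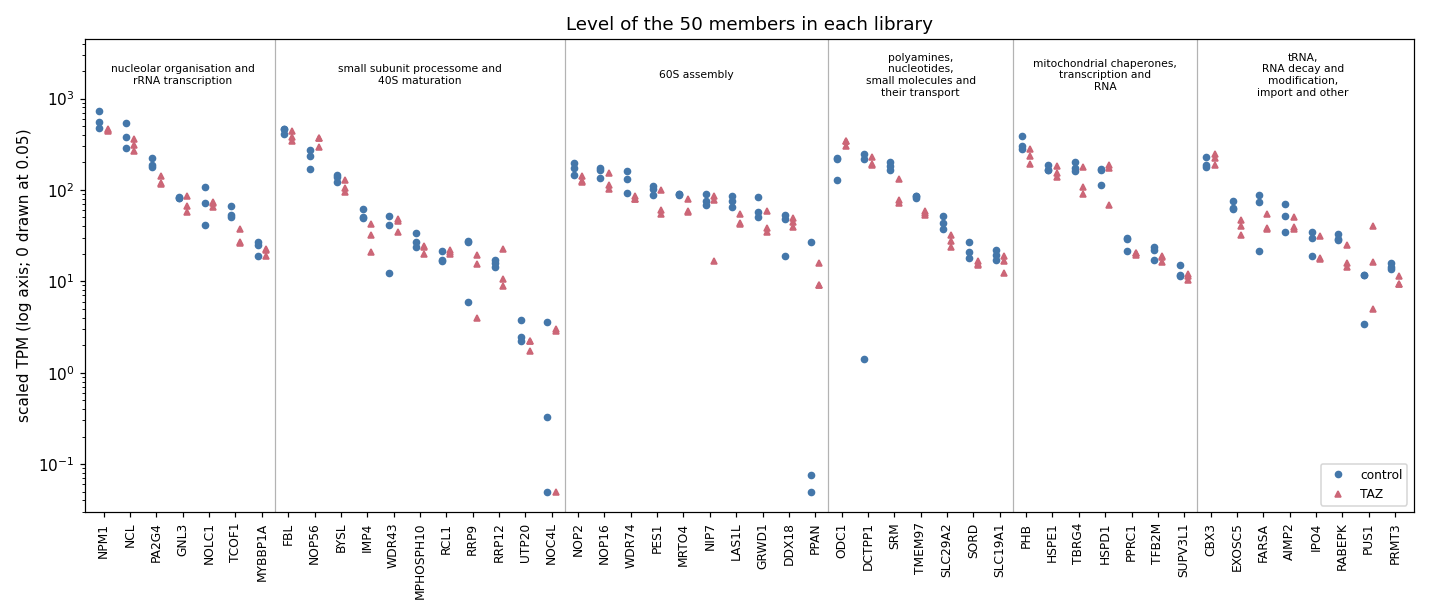
Scaled TPM of the 50 members in each of the 6 libraries, on a log axis, grouped by role; circles are control and triangles TAZ libraries. NPM1, FBL, NCL and NOP56 stand highest, and DCTPP1 and PPAN have control libraries far below the rest of their values.

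How far the members stood below 0 depended on the scaling between libraries. TPM gives each library a fixed total, and on that total the members together held 0.527%, 0.511% and 0.469% in control cells and 0.482%, 0.533% and 0.542% in TAZ cells, so their summed share overlapped between groups. Scaling to the median gene lowered the TAZ libraries 2 and 3, whose factors were 1.20 and 1.23, most. Without scaling the members' median was -0.065, beside 0.17 over all tested genes, with 32 of 50 (64%) below 0 against 35.1%, and 6 members (12%) had an unadjusted p under 0.05 against 15.8%. A factor per library shifts all genes nearly alike, so the distance of the members' median from that of all tested genes could change little. It was -0.27 with scaling and -0.23 without, and -0.10 and -0.11 from the median of the abundant genes. The absolute level of the members' median moved with the reference. The sign turned to above 0 without scaling in 7 members: AIMP2, FBL, HSPD1, HSPE1, MYBBP1A, SUPV3L1 and TFB2M. Members whose TAZ libraries lay below every control numbered 11 without scaling (22%, against 5.67% of all tested genes and 9.59% of the abundant ones). Of the 17 above, NOP2, NPM1, PPRC1, SLC29A2, SORD and WDR74 then overlapped. With scaling on abundant genes such members numbered 12 (24%, against 7.14% and 11.5%). With bases per gene in place of TPM they numbered 17 (34%, against 16.2% and 23.5%). In 9 members this held in all 4 versions: EXOSC5, LAS1L, MRTO4, PA2G4, PRMT3, RABEPK, SRM, TCOF1 and TMEM97. By library, the median deviation of the members from their control mean was 0.01, 0.02 and -0.05 in control cells and -0.10, -0.45 and -0.37 on the log2 scale in TAZ libraries 1, 2 and 3. TAZ library 1 lay nearest to the controls.

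**Figure D2:**
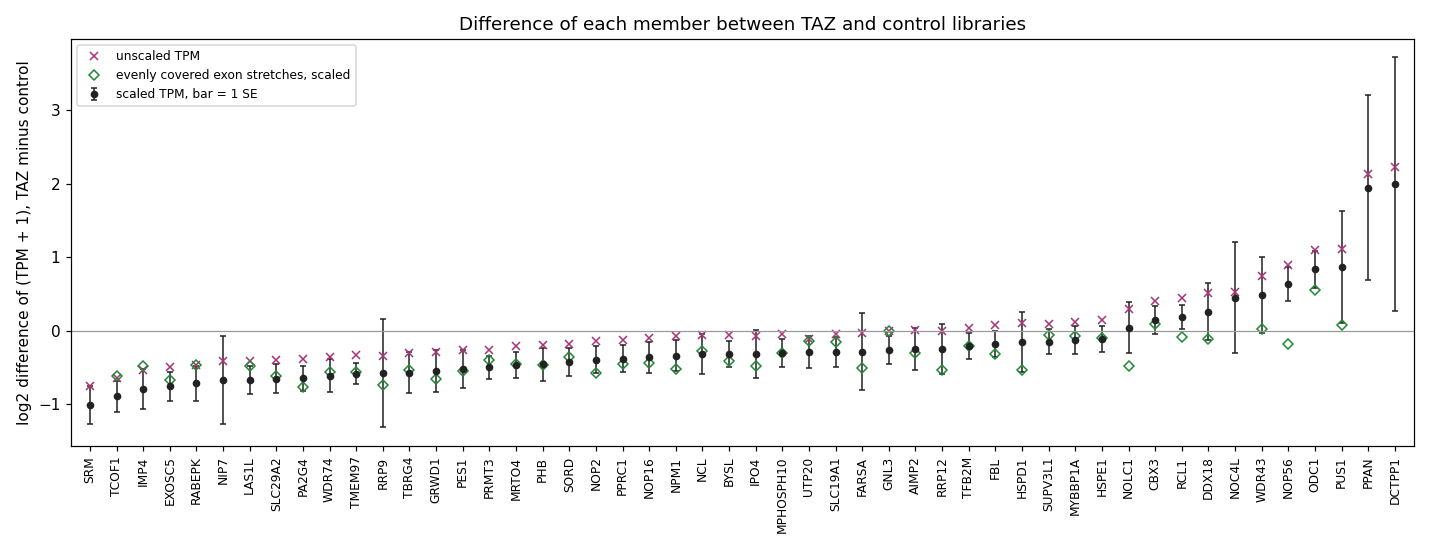
Log2 difference of each member between TAZ and control libraries, with bars of 1 SE, for scaled TPM (circles), unscaled TPM (crosses) and evenly covered exon stretches (diamonds). Most members lie below 0, ODC1 lies above 0 in each of the 3, and NOP56 lies above 0 on both kinds of TPM and below 0 on the evenly covered stretches.

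Read depth along the exons of a member was often uneven between libraries. The exons of the members were divided at each exon boundary into 639 stretches that reached 1 TPM in some library. In 414 of these the highest library exceeded the lowest by more than 4-fold, and in 280 of the 414 at least 1 library was at 0. A second level was therefore computed from the 225 evenly covered stretches alone, chosen on scaled depth and without regard to group. This choice was made after the data were seen, and by its construction no difference above 4-fold can appear in it. It also limits the spread between libraries, so errors and p-values on these stretches are shaped by the choice. The members' median SE was 0.22 on all exons (50 members) and 0.18 on these stretches (45 members). It gave a level for 45 members, on which a median of 78.8% of a member's depth lay, and none for DCTPP1, NIP7, NOC4L, PPAN and SRM.

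On the evenly covered stretches 41 of 45 members (91.1%) lay below 0, against 59.7% of 15810 tested genes and 73.9% of the abundant ones, and the median log2 difference was -0.45, against -0.09 and -0.24. On all exons 37 of the same 45 (82.2%) lay below 0, with a median of -0.32; DCTPP1, PPAN and NOC4L, which drop out, were above 0 there. TAZ libraries lay below every control in 22 members (48.9%, against 17.8% of all tested genes and 28.2% of the abundant ones). They lay above every control in ODC1 alone (8.71% of all tested genes and 6.48% of the abundant ones). At an unadjusted p under 0.05 there were 23 members (51.1%, against 21.8% and 31.7%). Still 0 members passed the adjusted threshold, which 3.26% of tested genes did; the lowest adjusted p was 0.0564, for PA2G4 (limma). Without scaling the median on these stretches was -0.20, against 0.14 over all tested genes and 0.02 over the abundant ones. Below 0 lay 31 of 45 (68.9%), against 34.1% and 47.8% in the same order. Separate and lower were 11 (24.4%, against 5.85% and 10.9%). AIMP2, BYSL, HSPD1, LAS1L, NOP2, NPM1, PPRC1, SLC29A2, SORD, TMEM97 and WDR74 were separate on these stretches with scaling and overlapped without it. At an unadjusted p under 0.05 there were then, without scaling, 4 members (8.89%, against 18.2% of all tested genes and 21.1% of the abundant ones). Of the 17 members whose TAZ libraries lay lowest on all exons, 15 did so here too, PRMT3 overlapped and SRM had no level. Those added were AIMP2, BYSL, GRWD1, HSPD1, IPO4, RRP12 and TBRG4.

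**Figure D3:**
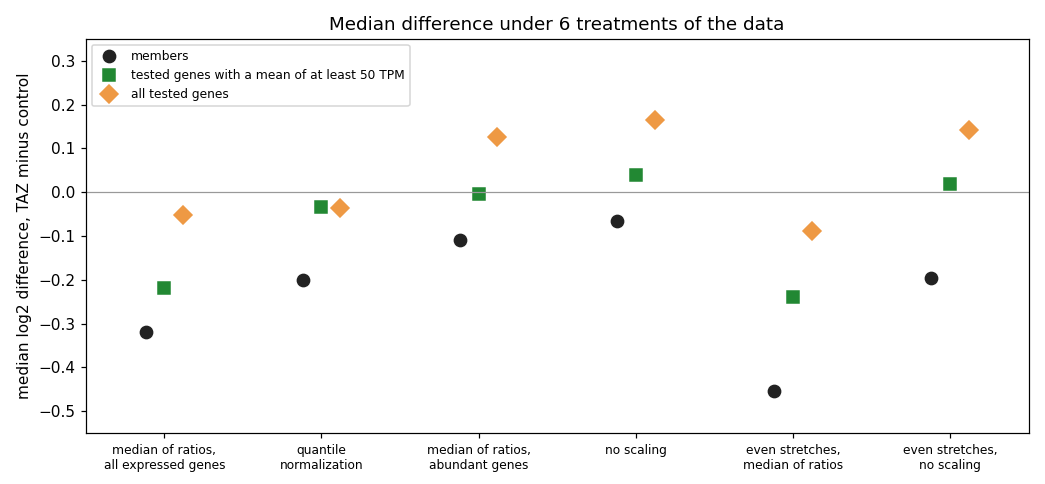
Median log2 difference, TAZ minus control, of the members, of abundant tested genes (mean of 50 TPM or more) and of all tested genes, under 6 combinations of scaling and exon choice. The members' median lies below both others in each, from -0.065 without scaling to -0.45 on scaled evenly covered stretches.

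Among the 7 factors of nucleolar organisation and ribosomal RNA transcription, 6 had a difference below 0, with a median of -0.32 (-0.06 without scaling). Below 0 were 54.8% of all tested genes and 67.9% of the abundant ones. The TAZ libraries lay below every control in 3 factors (42.9%, against 14.8% of all tested genes and 23.4% of the abundant ones). Without scaling this held in 2, against 5.67% and 9.59%. TCOF1 (ENSG00000070814.13, chr5:149737202-149779871, plus strand), or treacle, which recruits RNA polymerase I to the ribosomal RNA genes, was at 53.2, 50.6 and 67.1 scaled TPM in control cells and at 37.8, 26.1 and 27.2 in TAZ cells. The groups did not overlap, and the log2 difference of -0.90 ± 0.21 had the lowest adjusted p of the members (limma, 0.0902). Its last exon stretch (chr5:149779373-149779870) had a depth of 106, 84.2 and 120 TPM units in control cells and of 71.7, 62.9 and 61.8 in TAZ cells. Over its evenly covered stretches the difference was -0.62. Other stretches were near 0 in some libraries only. At chr5:149748279-149748465 the depth was 77.5, 64.7 and 82.5 in control cells. It was 47.2 in TAZ library 1 and 0.0115 and 1.07 in TAZ libraries 2 and 3, which adds to the difference on all exons. NOLC1, or Nopp140, a partner of treacle and a chaperone of small nucleolar ribonucleoproteins, was at 108, 40.9 and 72.1 in control cells and at 73.7, 72.3 and 65.1 in TAZ cells. Its sign was not stable: the difference was 0.04 on all exons, -0.19 with bases per gene and -0.48 on the evenly covered stretches. Without control library 2, the lowest on all exons, it was -0.33. In TAZ library 1 100% of its TPM lay on ENST00000488254.2 (2441 bases). In each other library 100% lay on ENST00000405356.1 (3966 bases).

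PA2G4 (ENSG00000170515.9, chr12:56498103-56507691, plus strand), also named EBP1, a ribosome-associated regulator of growth, was at 225, 189 and 180 scaled TPM in control cells and at 141, 120 and 115 in TAZ cells. The highest TAZ library stood well below the lowest control (log2 difference -0.65 ± 0.17, limma adjusted p = 0.124). On evenly covered stretches its levels were 361, 293 and 279 in control cells and 211, 176 and 158 in TAZ cells, a difference of -0.77 ± 0.19. NPM1, nucleophosmin, the most abundant member and a histone and ribosome chaperone of the nucleolus, was at 471, 548 and 731 in control cells and at 456, 437 and 466 in TAZ cells (-0.34 ± 0.21, limma adjusted p = 0.437). The groups were separate by a small margin, between control library 1 and TAZ library 3. On the evenly covered stretches the margin was wider, with 376, 411 and 449 against 269, 286 and 304 (-0.52, limma adjusted p = 0.119). NCL, nucleolin, which binds nascent ribosomal RNA, was at 540, 286 and 384 in control cells and at 312, 268 and 360 in TAZ cells. Its groups overlapped. The remaining factors were MYBBP1A, a nucleolar regulator of RNA polymerase I (-0.13), and GNL3, nucleostemin (-0.26 on all exons and 0 to 2 decimals on evenly covered ones); both overlapped.

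The 11 factors of the small subunit processome and of 40S maturation leaned least among the 3 ribosomal roles, with a median of -0.25 (-0.01 without scaling). Below 0 lay 7 (63.6%, against 54.8% of all tested genes and 67.9% of the abundant ones). IMP4 alone was separate and lower (9.09%, against 14.8% and 23.4%). NOP56 alone was separate and higher (9.09%, against 10.1% and 7.23%). Without scaling the counts of separate factors were the same. IMP4 (ENSG00000136718.5, chr2:131099798-131105383, plus strand), a protein of the U3 particle that folds and cuts the precursor RNA, was at 61.7, 50.8 and 49.2 scaled TPM in control cells. It was at 42.1, 20.7 and 32.5 in TAZ cells, all below the controls (log2 difference -0.79 ± 0.28, limma adjusted p = 0.215). FBL, fibrillarin, the methyltransferase of box C/D particles, was at 463, 406 and 466 in control cells and at 446, 383 and 345 in TAZ cells. These overlapped, and the difference of -0.19 turned to 0.073 without scaling. RRP12, an export factor of small subunits, gave -0.25 with overlapping groups on all exons. On its evenly covered stretches it was at 34.5, 35.6 and 32.8 in control cells and at 26.9, 23.5 and 20.0 in TAZ cells, where the groups were separate (-0.54, limma adjusted p = 0.105). BYSL, bystin, which binds late precursors of the small subunit, was likewise separate there, at 165 to the nearest unit in each control and 153, 109 and 113 in TAZ cells. RRP9, of the U3 particle, and WDR43, of an early processome complex, each spread over more than 4-fold between libraries on all exons. NOC4L was listed at 0 in control library 3 and TAZ library 3.

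NOP56 (ENSG00000101361.10, chr20:2632791-2639039, plus strand), a core protein of box C/D particles, went against the lean on all exons and not on the evenly covered ones, which span 1807 of its 4761 exonic bases. Its level was 273, 234 and 169 scaled TPM in control cells and 373, 294 and 369 in TAZ cells, separate and higher in TAZ (log2 difference 0.63 ± 0.23, limma adjusted p = 0.233). That excess lay on the last 465 bases (chr20:2638575-2639039), with 15.4, 11.4 and 0.277 TPM units in control cells and 362, 343 and 333 in TAZ cells. This stretch was nearly empty in each control and filled in each TAZ library. In the evenly covered part of the gene the level was 108, 97.4 and 77.5 in control cells and 83.1, 82.7 and 81.4 in TAZ cells (-0.18, limma adjusted p = 0.568, and 0.079 without scaling, with overlapping groups in both). The short transcript ENST00000462630.1 carried 11.8% ± 1.60 of the gene's TPM in control cells and 40.6% ± 12.7 in TAZ cells (SD, n = 3). The neighbouring gene IDH3B, on the opposite strand, ends 2 bases past this exon at chr20:2639041-2644865. It was at 111, 99.4 and 78.9 scaled TPM in control cells and at 88.0, 71.7 and 57.1 in TAZ cells, so it was not higher in TAZ. The use of strand in counting was not given in the sources used here.

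Factors of 60S assembly had the lowest median of the roles, -0.50 over 10 genes (-0.24 without scaling). Below 0 lay 8 (80%, against 54.8% of all tested genes and 67.9% of the abundant ones). In 4 the TAZ libraries lay below every control (40%, against 14.8% and 23.4%). Without scaling this held in 2, against 5.67% and 9.59%. LAS1L (ENSG00000001497.12, chrX:64732462-64754655, minus strand), which takes part in removal of the internal transcribed spacer, was at 85.1, 75.4 and 65.6 scaled TPM in control cells and at 55.1, 43.7 and 42.3 in TAZ cells. The groups were separate, also on evenly covered stretches (-0.67 ± 0.19 and -0.48 ± 0.16; limma adjusted p = 0.135 and 0.134). MRTO4, a placeholder for the ribosomal stalk, was at 87.9, 89.2 and 90.9 in control cells and at 78.8, 57.5 and 58.4 in TAZ cells. Controls of MRTO4 lay close together, and TAZ library 1 was the nearest to them. WDR74, which acts in release of a remodelling ATPase, gave -0.62 and NOP2, a ribosomal RNA methyltransferase, -0.40, and both were separate on scaled TPM but overlapped without scaling. GRWD1, a chaperone of a large subunit protein, was separate on evenly covered stretches, with 53.1, 57.7 and 62.2 in control cells and 45.5, 33.7 and 30.3 in TAZ cells (-0.66, limma adjusted p = 0.0864).

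PES1 of the PeBoW complex (-0.52) and NOP16 (-0.37) overlapped between groups with TAZ library 1 among the controls. DDX18, a helicase, was the factor whose sign depended on the exons used: 0.26 on all exons, with control library 1 low at 19.0 scaled TPM against 53.8 and 47.7 in the other controls, and -0.11 on even ones. For a pair of assembly factors the level hung on single libraries. NIP7 was at 67.7, 91.2 and 76.2 in control cells and at 76.9, 85.9 and 16.9 in TAZ cells, where the last exon (chr16:69375976-69377014) was at 0.0154 TPM units in TAZ library 3 against 94.0 to 112 elsewhere. Its difference was -0.67, or 0.059 without that library. PPAN was at 0, 26.7 and 0.0766 in control cells and at 15.9, 9.01 and 9.11 in TAZ cells (1.95 ± 1.26, limma adjusted p = 0.456). Without control library 2 the difference was 3.55 and passed (adjusted p = 0.00831), as 1.45% of all tested genes did upward. The annotated read-through gene PPAN-P2RY11, which shares its exons, was at 37.8, 22.4 and 34.9 in control cells and at 34.3, 19.5 and 20.2 in TAZ cells. It was lowest among the controls where PPAN was highest, so the separate level of PPAN is uncertain.

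The 7 genes of polyamines, nucleotides and small molecules held the members with the lowest difference, SRM, and the highest, DCTPP1. SRM (ENSG00000116649.5, chr1:11114641-11120081, minus strand), spermidine synthase, was at 167, 182 and 200 scaled TPM in control cells and at 131, 71.5 and 78.2 in TAZ cells. All TAZ libraries lay below the controls, TAZ library 1 nearest to them (log2 difference -1.01 ± 0.26, limma adjusted p = 0.112); without TAZ library 1 the difference was -1.28 and passed, with an adjusted p of 0.0272, as 0.957% of all tested genes did in that direction. No stretch of SRM was evenly covered. At chr1:11115838-11115983 the controls had 367, 381 and 455 TPM units and each TAZ library 0, while chr1:11116661-11116814 had 439 in control library 3, 249 in TAZ library 1 and 0 in the others. Toward the 3′ end (chr1:11114721-11114942) the depth was 126, 130 and 11.4 in control cells and 117, 81.1 and 75.4 in TAZ cells, where the groups overlapped. The SRM level thus sums exons that were filled in some libraries and empty in others.

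ODC1 (ENSG00000115758.8, chr2:10580094-10588630, minus strand), ornithine decarboxylase, makes the putrescine that SRM turns into spermidine, and it went the other way. It was at 128, 215 and 226 scaled TPM in control cells and at 305, 344 and 340 in TAZ cells. Every TAZ library stood above every control (log2 difference 0.83 ± 0.25, limma adjusted p = 0.168, and 1.10 without scaling, adjusted p = 0.0728). The difference did not rest on empty exons alone: in the 901 bases at the 3′ end (chr2:10580094-10580994) the depth was 248, 274 and 307 TPM units in control cells and 353, 413 and 375 in TAZ cells. An internal exon (chr2:10584221-10584393) had 310, 304 and 317 against 493, 680 and 628. Both stretches were separate between groups. On all evenly covered stretches the level was 194, 208 and 234 in control cells and 285, 339 and 311 in TAZ cells (0.55 ± 0.17, limma adjusted p = 0.106). Without scaling the difference on these stretches was 0.82 and passed the test (adjusted p = 0.0343), as 2.27% of all tested genes did in that direction. That p-value rests on a spread limited by the choice of stretches, so the pass is not independent of that choice. A further exon (chr2:10585281-10585390) was at 0 in each control and at 238, 295 and 188 in TAZ cells, and adds to the value on all exons.

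**Figure D4:**
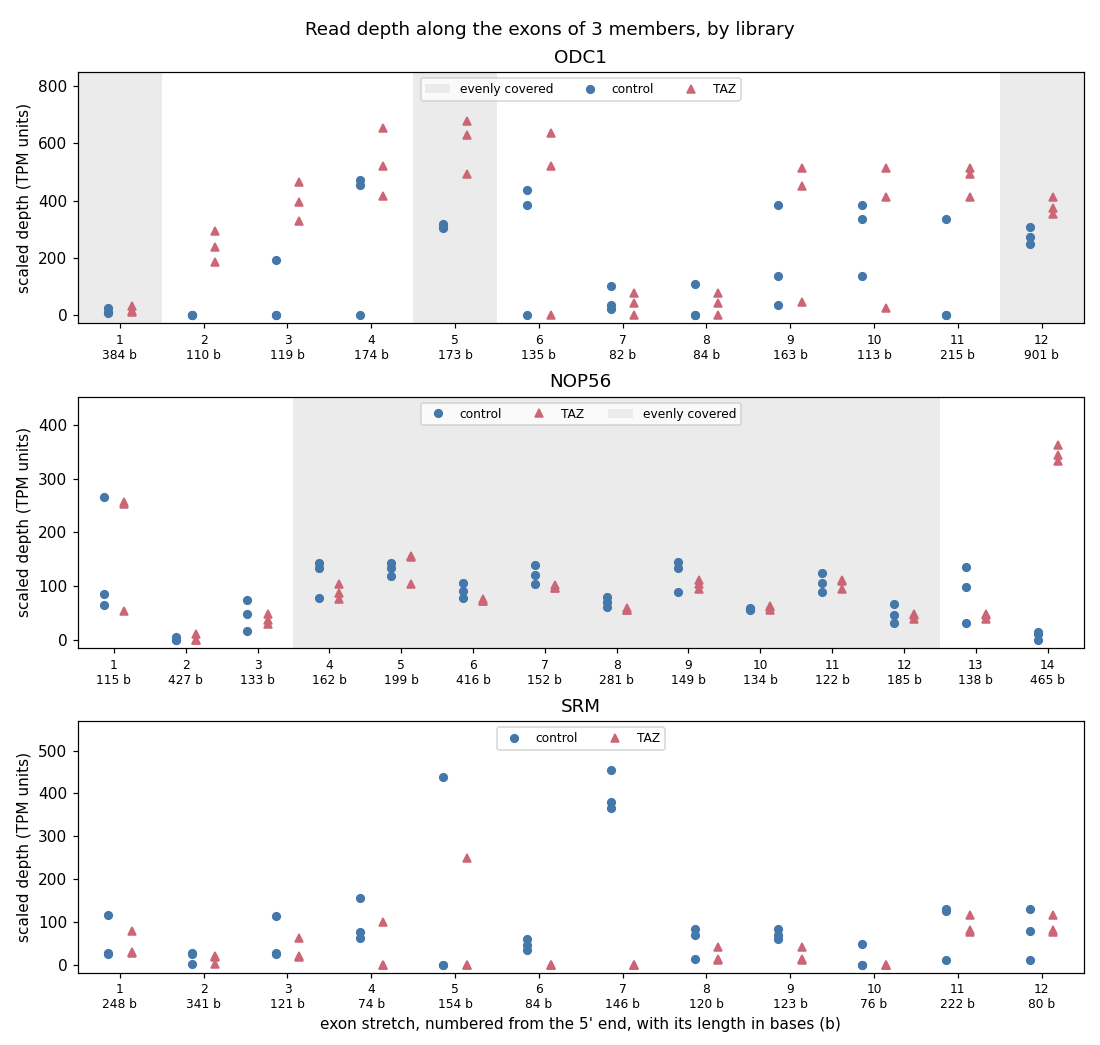
Scaled read depth, in TPM units, of the exon stretches of ODC1, NOP56 and SRM that span at least 50 bases, numbered from the 5′ end with their length; circles are control and triangles TAZ libraries, and shading marks evenly covered stretches. ODC1 is higher in TAZ on its 3′ stretch (353 to 413 against 248 to 307), the NOP56 excess sits on the last stretch, and SRM stretches are filled in some libraries and at or near 0 in others.

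TMEM97 (ENSG00000109084.9, chr17:26646121-26655707, plus strand), the sigma-2 receptor of the endoplasmic reticulum, was at 85.7, 86.1 and 81.9 scaled TPM in control cells and at 56.3, 58.1 and 53.4 in TAZ cells. On this scale both groups were tight and separate (log2 difference -0.59 ± 0.14, limma adjusted p = 0.0965). Unscaled, it was at 85.2, 81.3 and 71.5 in control cells and at 54.1, 69.5 and 65.6 in TAZ cells, still separate but by a small margin (-0.33, limma adjusted p = 0.425). Evenly covered stretches held 99.2% of its depth and gave -0.57, or -0.31 with overlapping groups without scaling. SLC29A2, the nucleoside transporter ENT2, was at 51.9, 43.6 and 37.7 in control cells and at 32.0, 27.8 and 23.7 in TAZ cells (-0.65 ± 0.20, limma adjusted p = 0.163). The groups were separate and each spread widely. SORD, sorbitol dehydrogenase (-0.43), was separate by a small margin, while SLC19A1, the reduced folate carrier (-0.29), overlapped. DCTPP1, which degrades dCTP and modified forms of it, had the highest difference of the members and the largest error, 1.99 ± 1.73. It was at 216, 248 and 1.40 in control cells and at 227, 190 and 186 in TAZ cells, and without control library 3 the difference was -0.22. Its 3′ exon (chr16:30434940-30435854) was at 1.86 TPM units in control library 3, against 241 to 323 in the other 5 libraries.

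All 7 mitochondrial members lay below 0, as did 54.8% of all tested genes and 67.9% of the abundant ones. Their median was the smallest in size of any role, -0.21 (0.04 without scaling). Without scaling 3 of the 7 lay below 0, against 35.1% and 46.4%. The groups were separate and lower in PHB and PPRC1 (28.6%, against 14.8% and 23.4%), and in PHB alone without scaling. PHB, prohibitin of the inner membrane, was at 283, 301 and 391 scaled TPM in control cells and at 282, 235 and 193 in TAZ cells. Control library 1 and TAZ library 1 were nearly equal (log2 difference -0.46 ± 0.22, limma adjusted p = 0.332). TBRG4, a mitochondrial RNA regulator of the FASTK family, was at 163, 173 and 200 in control cells and at 179, 107 and 89.3 in TAZ cells, where TAZ library 1 lay among the controls (-0.57). On its evenly covered stretches it was separate, with 98.0, 98.1 and 104 against 84.4, 65.7 and 57.2. HSPE1, the co-chaperonin, was at 165, 188 and 164 in control cells and at 140, 185 and 153 in TAZ cells. Its groups overlapped, and the difference of -0.12 turned to 0.14 without scaling. HSPD1, the chaperonin, which shares its promoter region with HSPE1, gave -0.15 on all exons and 0.11 without scaling. On evenly covered stretches HSPD1 was at 280, 286 and 257 in control cells and at 205, 215 and 151 in TAZ cells, which were separate (-0.54, limma adjusted p = 0.138); those stretches held 38.9% of its depth. PPRC1, a co-activator of mitochondrial biogenesis, gave -0.39, TFB2M, a mitochondrial transcription factor, -0.21, and SUPV3L1, a mitochondrial helicase, -0.15.

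Of the 8 members in tRNA charging, RNA decay and modification, import and other functions, 6 lay below 0, with a median of -0.30 (-0.05 without scaling). These 6 are 75%, against 54.8% of all tested genes and 67.9% of the abundant ones. The TAZ libraries lay below every control in 3 (37.5%, against 14.8% and 23.4%). Without scaling this held in 3 as well, against 5.67% and 9.59%. EXOSC5 (ENSG00000077348.4, chr19:41892279-41903384, minus strand), a ring subunit of the RNA exosome that trims ribosomal RNA precursors, was at 63.6, 76.2 and 62.3 scaled TPM in control cells. It was at 47.0, 32.1 and 40.3 in TAZ cells, all lower (log2 difference -0.76 ± 0.20, limma adjusted p = 0.118). The evenly covered stretches gave -0.67 ± 0.21 with separate groups. RABEPK, a kelch-motif partner of Rab9, was at 28.6, 29.0 and 32.6 in control cells and at 24.9, 15.7 and 14.3 in TAZ cells (-0.72), and PRMT3, which methylates a ribosomal protein, gave -0.50. Both were separate on all exons, with and without scaling. IPO4, an importin of histones and ribosomal proteins, was separate on evenly covered stretches (-0.48), with 80.7, 81.2 and 81.3 in control cells and 64.3, 52.4 and 57.2 in TAZ cells. AIMP2, a scaffold of the tRNA synthetase complex (-0.25), FARSA, a phenylalanyl-tRNA synthetase subunit (-0.29), and CBX3, a heterochromatin protein (0.14), overlapped on all exons. PUS1, a pseudouridine synthase, was at 11.8, 3.38 and 11.8 in control cells and at 5.03, 16.2 and 40.7 in TAZ cells. Its difference of 0.86 ± 0.76 rests on TAZ library 3 and on uneven exons, and over the 138 bases evenly covered it was 0.08.

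Processed pseudogenes, copies of a gene's mRNA inserted elsewhere in the genome, share sequence with several members. The annotation names 100 for 11 members, and for 8 of these members the pseudogenes' summed TPM exceeded 10% of the member's own. The 45 NPM1 pseudogenes summed to 1381, 1531 and 1546 scaled TPM in control cells and to 1175, 996 and 986 in TAZ cells, 245% of the level listed for NPM1 itself. All 3 TAZ sums lay below the controls, as for NPM1. The 4 PA2G4 pseudogenes summed to 195, 163 and 123 in control cells and to 100.5, 82.3 and 73.4 in TAZ cells, or 75.9% of PA2G4. For HSPD1 the sum of 15 pseudogenes was 187% of the gene and was separate between groups, with 356, 315 and 280 in control cells and 223, 241 and 223 in TAZ cells, while the gene itself overlapped. In 9 of the 11 members the sum of pseudogenes lay below every control in each TAZ library, and without scaling in 4; over single tested genes this held for 14.8% and 5.67%. How much of the pseudogene signal came from member mRNA was not tested, and levels of NPM1, HSPD1, PA2G4 and CBX3 are less certain than their spread between libraries shows.

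**Figure D5:**
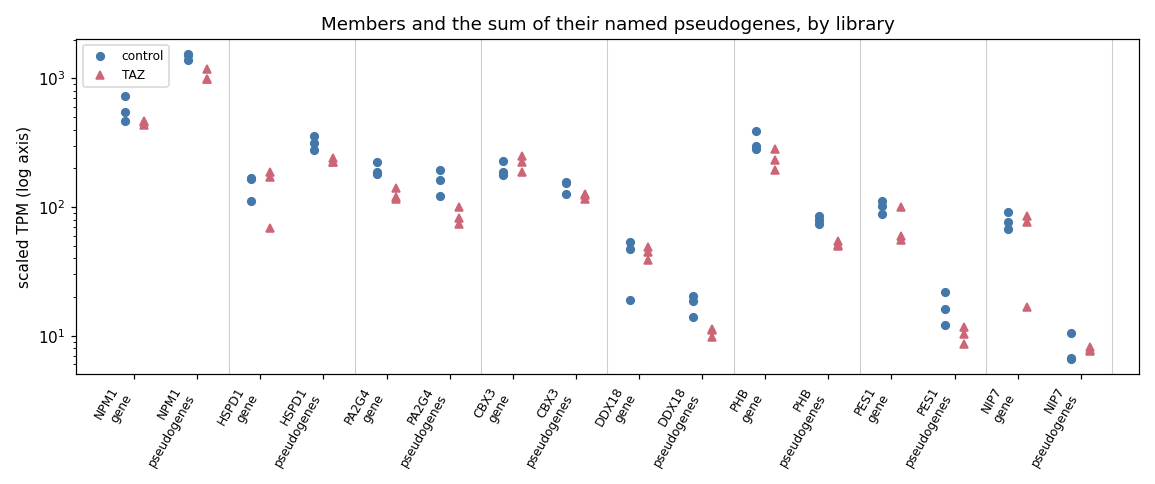
Scaled TPM, on a log axis, of the 8 members whose named pseudogenes exceed 10% of their own level and of the sum of those pseudogenes, by library; circles are control and triangles TAZ libraries. The NPM1 and HSPD1 sums exceed the level listed for the gene, and the NPM1, HSPD1 and PA2G4 sums lie below every control in each TAZ library.

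At the level of transcripts, 24 of the 50 members had a single transcript with at least 90% of the gene's TPM in every library, and in 36 the same transcript led in all 6 libraries. The share of the leading transcript was separate between groups in a pair of members. It was higher in TAZ in NOP56, as given above. In NPM1 the transcript ENST00000517671.1 carried 71.7% ± 16.2 in control cells and 45.1% ± 12.9 in TAZ cells (SD, n = 3). The last evenly covered NPM1 stretch (chr5:170837531-170837887) had a depth of 1041, 999 and 1005 TPM units in control cells and of 594, 677 and 681 in TAZ cells, a wider gap than the gene's TPM showed. Transcripts of a gene share reads, so these shares are descriptions without a test.

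Other genes of the same pathways, 131 in 6 lists by function, also lay mostly below 0 on scaled TPM, and 1 was called. Among 35 further large subunit factors, SENP3, a SUMO protease that acts on the assembly complex of LAS1L, passed the test: it was at 163, 152 and 151 scaled TPM in control cells and at 79.7, 89.2 and 85.6 in TAZ cells (log2 difference -0.86 ± 0.15, limma adjusted p = 0.0310). It fell in scaled TPM and did not pass without scaling (adjusted p = 0.211), and the overlapping read-through gene SENP3-EIF4A1 was at 10.8 to 67.0 in control cells and 14.3 to 17.2 in TAZ cells. Of these 35 genes 31 lay below 0, with a median of -0.29 (24 below 0 and a median of -0.03 without scaling). In the other 5 lists 0 genes passed in either direction, against 3.21% of all tested genes. At an unadjusted p under 0.05 there were 5 of the 35 large subunit factors (14.3%), 1 of 15 RNA polymerase I genes (6.67%), 4 of 11 of the small nucleolar particles (36.4%), 6 of 37 further small subunit factors (16.2%), 3 of 20 tested polyamine and nucleotide genes (15%) and 2 of 12 mitochondrial partners (16.7%). Over all tested genes it was 18%, which the small nucleolar particles alone exceeded. The medians were -0.26 for RNA polymerase I (10 of 15 below 0), -0.38 for the small nucleolar particles (9 of 11) and -0.21 for the small subunit factors (24 of 37). They were -0.09 for the polyamine and nucleotide genes (13 of 20) and -0.24 for the mitochondrial partners (10 of 12). Below 0 were 54.8% of all tested genes (median -0.05) and 67.9% of the abundant ones (median -0.22). Without scaling the medians of these 5 lists lay between -0.13 and 0.16. Below 0 were then 8 of 15, 8 of 11, 19 of 37, 7 of 20 and 6 of 12 in the same order. This stood against 35.1% of all tested genes and 46.4% of the abundant ones.

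The 2 genes with the lowest p in each of the lists without a call were as follows. NOL10, a processome protein, was at 35.0, 26.9 and 24.0 scaled TPM in control cells and at 17.2, 15.8 and 13.3 in TAZ cells (limma adjusted p = 0.0931), and NAT10, an RNA acetyltransferase, had an adjusted p of 0.195. RUVBL1, an ATPase that assembles small nucleolar particles, was at 201, 181 and 149 in control cells and at 128, 127 and 102 in TAZ cells (adjusted p = 0.203), and SHQ1 had 0.193. Both groups of NOL10 and of RUVBL1 were separate. PHB2, the partner of PHB in its ring complex, was at 980, 862 and 754 in control cells and at 633, 611 and 514 in TAZ cells (adjusted p = 0.203), also separate, and LONP1, a mitochondrial protease, had 0.246. For RNA polymerase I the lowest were TWISTNB (log2 difference -0.39, adjusted p = 0.247) and CD3EAP (-0.44, adjusted p = 0.288), both subunits of the enzyme.

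In the polyamine and nucleotide list, NME1, a nucleoside diphosphate kinase, was at 498, 511 and 608 scaled TPM in control cells and at 404, 235 and 203 in TAZ cells (limma adjusted p = 0.147). The overlapping gene NME2 (chr17:49230951-49249105) was at 0 in every library and was the gene of this list not tested. How reads were divided between NME1 and NME2 was not tested, so the separate level of NME1 is uncertain. SAT1, which acetylates spermidine and spermine for breakdown or export, was at 30.3, 39.9 and 27.0 in control cells and at 42.6, 57.2 and 59.5 in TAZ cells (0.70, limma adjusted p = 0.180). Both were separate between groups, NME1 lower and SAT1 higher in TAZ. The other polyamine genes listed did not pass either: the log2 difference was -0.06 for AMD1, which supplies the aminopropyl donor, 0.45 for SMS, spermine synthase, -0.07 for OAZ1, the antizyme that directs ornithine decarboxylase to degradation, and 0.30 for AZIN1, which counters it.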

How the data were processed

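Polyadenylated RNA of 6 libraries was sequenced on an Ion Torrent Proton instrument, 2 libraries per chip, per the labels' protocols (their assignment was not given in the sources used here). Per the submitters' processing notes, hg19, STAR 2.3.0, Bowtie2 2.0.0 and StringTie 1.3.3b were used; the annotation release was not given in the sources used here. The deposited values are TPM, FPKM and read depth of transcripts and exons, 1 file per library, with no pooling. No counts of reads were used.

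Transcript TPM was summed per gene, scaled by the median of ratios over 28148 genes above 0 in all libraries, and tested as log2(scaled TPM + 1) over 19390 genes averaging 1 TPM or more by limma 3.58.1 in R 4.3.3 (lmFit, eBayes with trend and robust), without a block, with Benjamini-Hochberg adjustment and a threshold of 0.05. Such a fold change understates changes of low genes. The procedure was tested on simulated data. "Separate" means that the 3 libraries of a group all lie above those of the other. Abundant genes are those averaging 50 TPM or more.

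For evenly covered stretches, exon depth was summed over transcripts and put in TPM units. Stretches were kept where, on scaled depth, the highest library was at least 1 TPM and at most 4 times the lowest. The fit without scaling used the same stretches, so their choice still rests on scaled depth. Genes with at least 100 such bases were fitted in the same way. Tables were made with Python 3.11.15, pandas 2.3.3 and numpy 2.4.6. The named members were those past the threshold, the 8 with the lowest p, the 4 with the largest positive difference, the 4 with the highest level and the lowest and highest of each role; others were named by role, or chosen after their values were seen (exon and evenly covered values). Members and lists were chosen with earlier results of these data known.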

Additional observations from a re-analysis of the deposited data

How the results depend on the processing

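The results were recomputed under 19 other settings, 3 of them chosen after the data were seen (bases per gene, evenly covered stretches, and these without scaling). Of the 50 members, 27 had a value and kept their sign in all 19, 25 below 0 and 2 above; NOC4L, PPAN and SRM kept theirs in the settings that gave them a value, and 20 turned sign in at least 1. Called in any were 3 (ODC1, PPAN and SRM). Over all tested genes 623 were called, 352 with no filter on low values, and 278 to 774 when 1 library was left out. With the replicate number as a block it was 236, and 0 members passed. Libraries with the same number correlated at 0.0040, -0.024 and -0.055 in their deviations from the group means. Those with unlike numbers correlated at -0.042 to 0.070, so no likeness by number was seen. The labels do not say what a shared number means, and whether the samples were paired is not known. Leaving out 1 library called 0 to 1 members higher (PPAN without control library 2, 3.55, limma adjusted p = 0.00831) and 0 to 1 lower (SRM without TAZ library 1). Evenly covered stretches without scaling, whose choice limits the spread between libraries, called 1 member higher (ODC1, 0.82). The members' median of -0.32 became -0.065 without scaling, -0.11 when scaled on abundant genes, -0.20 with quantile normalization, -0.45 on evenly covered stretches and -0.20 on these without scaling, and -0.40 to -0.28 when 1 library was left out. The count of 17 members separate and lower became 11 without scaling, on all exons and on evenly covered ones, and 18 to 26 when 1 library was left out, where fewer libraries need to be separate. Among the members named by rule, signs turned for FBL (0.073 without scaling, 0.068 with quantile normalization, 0.027 scaled on abundant genes), HSPE1 (0.14, 0.085 and 0.095 in the same order, and 0.16 on evenly covered stretches without scaling), NOLC1 (-0.19 on bases per gene, -0.48 on evenly covered stretches, -0.22 on these without scaling, -0.33 without control library 2 and 0.37 without control library 1), NOP56 (-0.18 on evenly covered stretches), DCTPP1 (-0.22 without control library 3, to 3.14 without control library 2) and NIP7 (0.059 without TAZ library 3, from -1.08 without TAZ library 2). Which scaling is nearest to RNA per cell was not tested. With 3 libraries a group and low depth over single exons, exons filled in one library and empty in the next limit the precision of the affected members; the cause of that pattern was not tested.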
